A study of Homo sapiens with 12 samples.

Results

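Interleukin-8 and 3 other inflammatory mediators were followed across 4 groups of HCT-116 cells, an established human colorectal carcinoma line. The 4 genes are CXCL8, PTGS2, ICAM1 and PLA2G2A, picked by name from a panel of 770 genes. They were picked because their measured group means were already known to differ between groups, so their own values are given here as a description and support nothing further. Transcripts were counted on the NanoString nCounter PanCancer Progression panel, in which fluorescent barcodes on hybridised probes are counted without amplification. The groups were a control, of which the labels say no more, heteronemin, tetrac, and heteronemin with tetrac, with 3 samples each. Treatment lasted 24 h, on cells of 1 line plated in six-well plates. Heteronemin is a terpenoid isolated from marine sponges. Tetrac is the acetic acid analogue of the thyroid hormone thyroxine. The sources used here give neither the doses nor the vehicle, and do not say whether samples were separate cultures.

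The 4 genes take different parts in inflammation. CXCL8 encodes interleukin-8, a secreted chemokine that attracts neutrophils through the receptors CXCR1 and CXCR2 and that many carcinoma cells release under stress or cytokine stimulation. PLA2G2A encodes a secreted phospholipase that frees fatty acids from membrane phospholipids, and PTGS2 encodes cyclooxygenase-2, the inducible enzyme that turns arachidonic acid into the precursor of prostaglandins. ICAM1 encodes a surface receptor to which leukocyte integrins bind. Transcription of such genes is classically driven by NF-kB, AP-1 and C/EBP factors.

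The values are the authors' group means of normalized counts, 1 per gene and group, so no SD, interval or depth per sample can be given. The lowest mean in the tables is 33, called the floor here. Each table of a treated group against control also holds an unadjusted p-value printed to 2 decimals, so that a printed 0 stands for any p below 0.005. A gene passed where that p was under 0.05. These p-values measure only the spread between the samples, which may be technical.

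CXCL8 was low in control and high wherever heteronemin was present. Its authors' mean was 65.5 in control and 74.4 after tetrac, against 535 after heteronemin and 892 with both compounds. The 2 groups without heteronemin lie close together, and the 2 groups with it lie far above them. The ratio to control was 8.16-fold with heteronemin, 1.14-fold with tetrac and 13.6-fold with both. In the authors' deposited table, the p was printed as 0 for heteronemin, 0.33 for tetrac and 0 for the combination.

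PTGS2 was highest after heteronemin alone. Its authors' mean was 38.9 in control, 99.3 with heteronemin, 49.8 with tetrac and 52.8 with both. In the combination it therefore lay near its tetrac level, not near its heteronemin level. The ratio to control was 2.55-fold, 1.28-fold and 1.36-fold in the same order of treatments, with p of 0.01, 0.48 and 0.37 in the authors' deposited table.

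PLA2G2A was at the edge of detection in control, with an authors' mean of 33.8 against the floor of 33. It stood at 93.1 with heteronemin, 55.9 with tetrac and 60.5 with both. As with PTGS2, heteronemin alone gave the highest mean, and the combination lay close to tetrac alone. The ratio to control was 2.76-fold, 1.66-fold and 1.79-fold, with p printed as 0, 0.27 and 0.09 in the authors' deposited table. Because the control mean lies 0.750 counts above the floor, these ratios depend on where the floor was set: with the floor subtracted and 10 added, the log2 ratio after heteronemin went from 1.46 to 2.70. For PTGS2 the same step moved it from 1.35 to 2.26.

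ICAM1 varied least of the 4. Its authors' mean was 39.9 in control, 61.2 with heteronemin, 46.1 with tetrac and 47.5 with both. The order of groups was that of PTGS2 and PLA2G2A, over a narrower span. The ratio to control was 1.54-fold, 1.16-fold and 1.19-fold, with p of 0.02, 0.53 and 0.40 in the authors' deposited table.

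**Figure D1:**
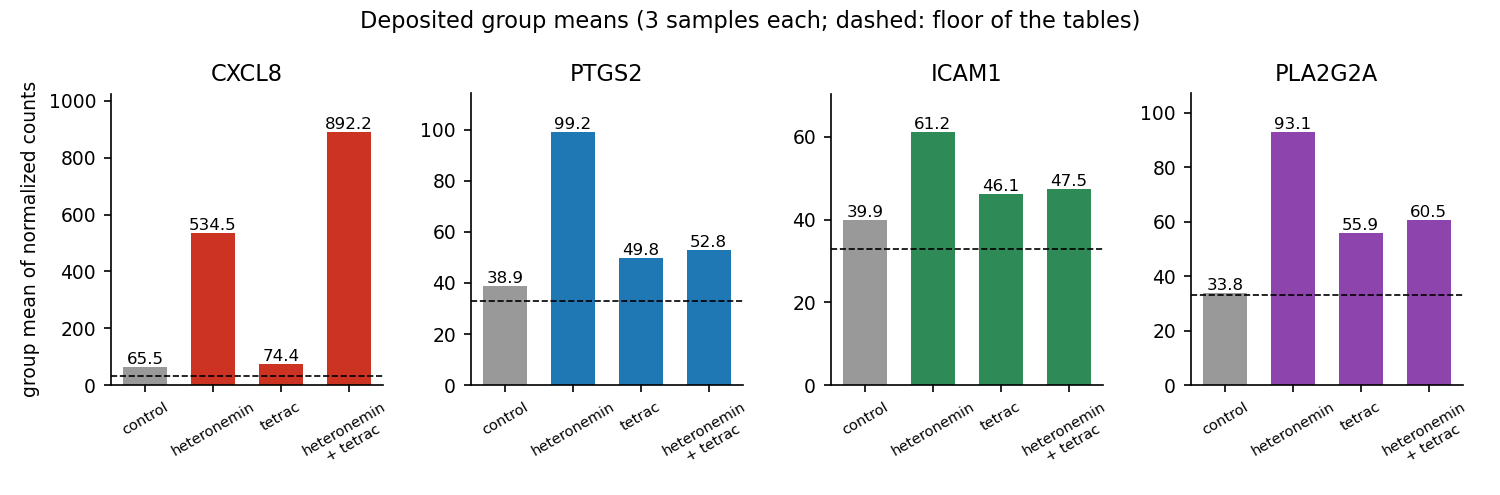
Authors' group means of normalized counts (vertical axes, each from 0 and on its own scale) for the 4 genes in the 4 groups of 3 samples; bars are the deposited means, which carry no error, and the dashed line is the floor of 33. CXCL8 is high in both groups that held heteronemin, while PTGS2, ICAM1 and PLA2G2A are highest after heteronemin alone.

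All 4 genes passed as higher after heteronemin, 0 of 4 after tetrac, and 1 of 4, CXCL8, after the combination. Over the whole panel, 11.2% of 704 tested genes passed as higher after heteronemin, 0.280% of 714 after tetrac and 8.16% of 686 after the combination. The shares that passed as lower were 15.9%, 0.980% and 14.1%. Since the genes were chosen with these contrasts known, the 4 counts are not read against those shares. After Benjamini-Hochberg adjustment over all tested genes of the heteronemin table, the printed p-values gave an adjusted p of 0.0828 for PTGS2 and 0.111 for ICAM1. CXCL8 and PLA2G2A, printed as 0, had an adjusted p of 0.0859 when the largest p that rounding allows was used for every gene. On that same basis the adjusted p was 0.124 for PTGS2 and 0.139 for ICAM1.

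The starting level of a gene went along with the size of its ratio on this panel. All 4 genes had a control mean above the floor and under 100, a class of 148 genes. In that class, 33.1% passed as higher after heteronemin and the median log2 ratio was 0.73, against a median of 0.11 over all 770 genes. The class of 167 genes with a control mean of 400 or more had a median log2 ratio of -0.36, and 2.99% of it passed as higher. The part of starting level in the ratios of the 4 genes was not tested.

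The 4 genes lay at different places within this class. CXCL8, at a log2 ratio of 3.03 after heteronemin, was the highest of the 148 genes and the highest of all 704 tested; the next gene down, SPP1, which encodes the secreted phosphoprotein osteopontin, was at 1.91. PLA2G2A, at 1.46, was rank 13 of 704, and 7 of the 148 class members, itself included, were at least as high. PTGS2, at 1.35, was rank 22 of 704, with 12 of 148 at least as high, and it stood directly below IL1B, a cytokine at the floor in control. ICAM1, at 0.62, lay below the class median, with 87 of 148 at least as high. In a narrower class of 75 genes with a control mean above the floor and under 45, chosen after seeing the data, the median after heteronemin was 0.91, so that ICAM1 again lay below it while PTGS2 and PLA2G2A lay above.

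After tetrac the 4 genes lay in another order. The class median was 0.25 on the log2 scale there, and CXCL8, at 0.18, lay below it. PTGS2 was at 0.35 and ICAM1 at 0.21. PLA2G2A, at 0.73, had the fifth highest ratio of the 714 tested genes (rank 5) although it did not pass. That rank rests on a control mean 0.750 counts above the floor. After the combination CXCL8, at 3.77, was again rank 1, ahead of JUN at 2.25, which encodes a component of AP-1. PLA2G2A was at 0.84, PTGS2 at 0.44 and ICAM1 at 0.25, against a class median of 0.39.

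**Figure D2:**
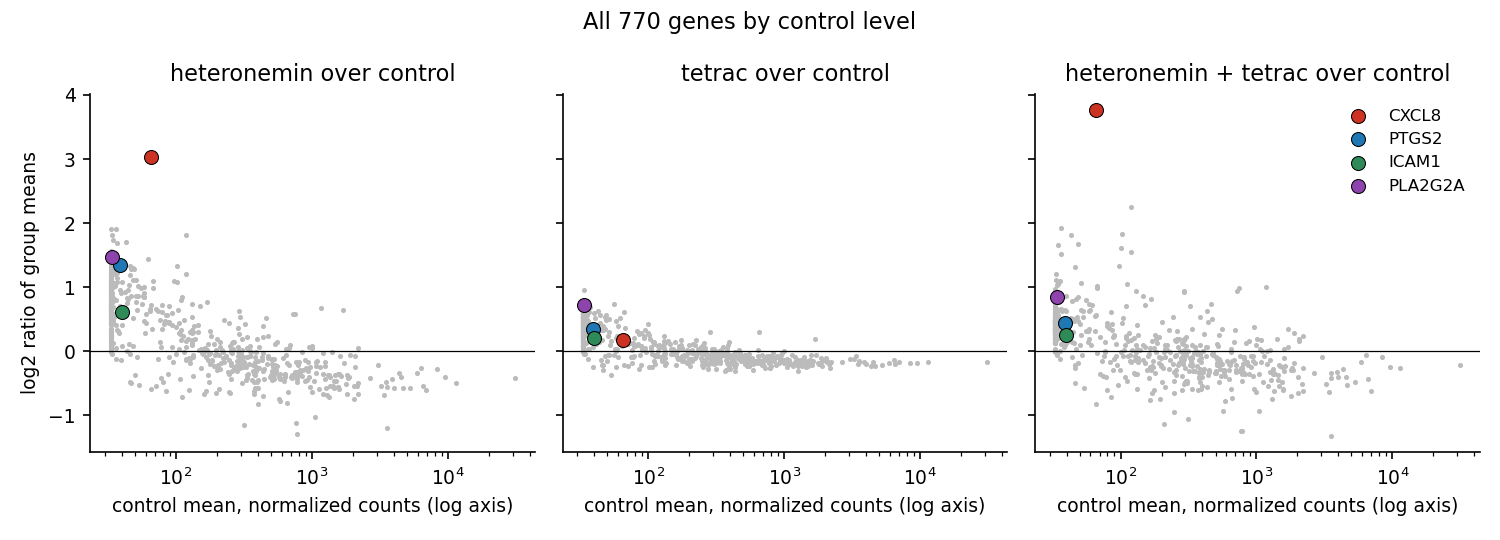
The log2 ratio of group means (vertical axis) against the control mean in normalized counts (horizontal log axis) for all 770 genes, in 1 panel per treatment; coloured points are the 4 genes and grey points all others. CXCL8 lies apart at 3.03 and 3.77 in the 2 panels with heteronemin, while the other 3 lie within the cloud of genes of low control level.

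Adding tetrac to heteronemin went with opposite differences within the group of 4. CXCL8 was 1.67-fold higher in the combination than after heteronemin alone, a log2 ratio of 0.74. PTGS2 was 1.88-fold lower, PLA2G2A 1.54-fold lower and ICAM1 1.29-fold lower, at log2 ratios of -0.91, -0.62 and -0.37. These are quotients of deposited means; the tables hold no p for them, so no difference between treatments was tested.

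Few genes of the panel were higher by that margin. Of 707 genes above the floor in either group, 0.283% were 1.5-fold or more higher in the combination than after heteronemin alone, which is 2 genes, and 10.5% were 1.5-fold or more lower. CXCL8 was 1 of the 2; the other was LAMB3, a laminin chain, at a log2 ratio of 0.75. PTGS2 had the lowest ratio of its 148 class members and rank 7 from the bottom of all 770 genes. The class as a whole was lower in the combination, with a median log2 ratio of -0.25 and 120 of 148 genes below 0. ICAM1 and PLA2G2A lay on the same side, with 56 and 27 of the 148 class members at or below them. The part that the shift of all low genes has in their values was not tested.

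Set against tetrac alone, the combination separated CXCL8 from the rest. CXCL8 was 12.0-fold higher in the combination than after tetrac, the highest ratio of 770 genes. PTGS2 was 1.06-fold, PLA2G2A 1.08-fold and ICAM1 1.03-fold higher, near the class median of 0.11 on the log2 scale. At 1.5-fold or more, 5.19% of 713 genes were higher. Between the single treatments, heteronemin over tetrac gave 7.19-fold for CXCL8, 1.99-fold for PTGS2, 1.66-fold for PLA2G2A and 1.33-fold for ICAM1, where 15.6% of 716 genes were 1.5-fold or more higher.

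**Figure D3:**
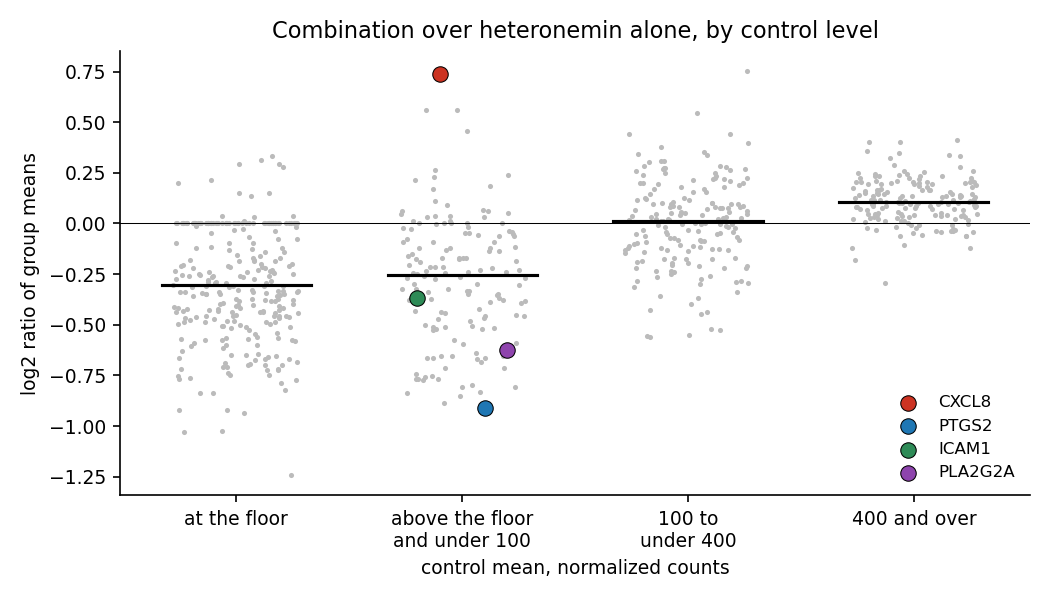
The log2 ratio of the combination mean over the mean after heteronemin alone (vertical axis) for all genes, grouped by control mean in normalized counts (horizontal axis, points spread sideways for legibility); black bars are class medians. CXCL8 lies at 0.74 and PTGS2 at -0.91, the top and the bottom of their class.

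The combination can also be set beside the sum of the single log2 ratios, which share its control mean. For CXCL8 that sum was 3.21 and the combination 3.77, a departure of 0.56. For PTGS2 the sum was 1.70 and the combination 0.44, a departure of -1.26. PLA2G2A departed by -1.35 and ICAM1 by -0.58. These sizes depend on the floor: with it subtracted and 10 added, PTGS2 departed by -2.10 and PLA2G2A by -2.52. The median departure was -0.52 in the level class of the 4 genes and -0.08 over all genes, so ICAM1 lay near its class and CXCL8 on the other side of 0. On this measure CXCL8 was rank 11 from the top of 770 genes, and PLA2G2A rank 12 and PTGS2 rank 24 from the bottom.

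The bases before the transcription start were read for matches to fixed patterns of classical inflammatory motifs. RefSeq promoter sequences (GRCh38.p14) were found for all 4 genes, and the 250 bases before the start are printed, 5′ to 3′ on the gene's strand, for the 3 that held a match, with matches in capitals. CXCL8 is at chr4:73740319-73740568 on the plus strand, PTGS2 at chr1:186680424-186680673 on the minus strand and ICAM1 at chr19:10270870-10271119 on the plus strand.
CXCL8: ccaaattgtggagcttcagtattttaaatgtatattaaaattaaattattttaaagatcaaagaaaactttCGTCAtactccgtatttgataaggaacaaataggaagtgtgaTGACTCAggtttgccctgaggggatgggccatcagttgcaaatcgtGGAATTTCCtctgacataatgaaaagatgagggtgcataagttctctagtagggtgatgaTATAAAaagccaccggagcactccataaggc
PTGS2: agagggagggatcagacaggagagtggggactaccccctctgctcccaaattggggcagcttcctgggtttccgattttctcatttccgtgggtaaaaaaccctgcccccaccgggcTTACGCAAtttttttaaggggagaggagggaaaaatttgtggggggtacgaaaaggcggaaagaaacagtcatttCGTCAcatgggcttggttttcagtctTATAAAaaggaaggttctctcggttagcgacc
ICAM1: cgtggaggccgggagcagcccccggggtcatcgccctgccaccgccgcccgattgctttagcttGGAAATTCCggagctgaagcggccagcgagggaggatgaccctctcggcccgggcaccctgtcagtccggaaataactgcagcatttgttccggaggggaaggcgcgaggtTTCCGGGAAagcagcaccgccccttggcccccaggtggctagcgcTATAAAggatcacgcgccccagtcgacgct

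The motifs searched, on both strands, were GGNNNTTCC for NF-kB, TGANTCA for AP-1, TTNNGCAA for C/EBP, TGACG for the core of the cyclic AMP response element, TTCNNNGAA for STAT factors and TATAAA for the TATA box. In the printed windows no motif overlapped a different one, and each NF-kB match reads as the motif on both strands. CXCL8 held GGAATTTCC at 91 to 83 bases before the start, TGACTCA at 137 to 131, CGTCA (the cyclic AMP motif on the other strand) at 179 to 175 and a TATA box at 31 to 26. PTGS2 held TTACGCAA at 133 to 126, CGTCA at 58 to 54 and a TATA box at 32 to 27. ICAM1 held GGAAATTCC at 186 to 178, TTCCGGGAA at 75 to 67 and a TATA box at 30 to 25. The table lists 3 starts for PLA2G2A, and the window of the first held none of the 6 motifs. Of 35116 promoter windows of the same length, 17.1% held the NF-kB motif, 6.57% the AP-1 motif, 9.05% the C/EBP motif, 21.2% the cyclic AMP motif, 6.57% the STAT motif and 10.7% the TATA box. A match describes letters only and shows no binding. Each factor was searched by a fixed pattern, so sites spelled otherwise are missed. The lack of a match therefore does not show that a factor has no site there.

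The factors that act through such motifs were sparsely covered by the panel. JUN was the 1 measured gene of the AP-1 and C/EBP list, and it passed as higher after heteronemin, from an authors' mean of 119 to 419, and after the combination, to 569, while tetrac gave 126. The NF-kB list had 2 measured genes, of which 0 passed as higher in any comparison. Over the panel 11.2%, 0.280% and 8.16% passed as higher after heteronemin, tetrac and the combination. A list of 2 genes is too short to be read against these shares. NFKB1, which encodes the p50 subunit and its precursor, had authors' means of 118, 109, 118 and 106 in control, heteronemin, tetrac and combination. MAP3K7, the kinase TAK1 upstream of NF-kB, passed as lower after heteronemin, with a log2 ratio of -0.21. STAT3, a transcription factor activated by cytokines, passed as lower after heteronemin, at a log2 ratio of -0.36. Of 5 MAP kinase genes, 20% passed as lower after each of the 3 treatments, beside 15.9%, 0.980% and 14.1% over the panel. The gene was MAPK3, which encodes ERK1, at log2 ratios of -0.78, -0.30 and -0.77. All these are transcript levels, and the activity of the factors was not measured.

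CXCL8 was the 1 measured neutrophil-attracting chemokine of its list, and 10 of the 11 other chemokines were at the floor in control. After heteronemin their means lay between 33 and 84.2. Of the 9 with a p, 1 passed as higher: CCL11, the eosinophil attractant eotaxin, from 33.8 to 84.2. That is 11.1%, beside 11.2% over the panel. None passed after tetrac or the combination. The median log2 ratio of the 11 was 0.67, 0.31 and 0.34 for heteronemin, tetrac and the combination, against 0.11, 0.02 and 0.09 over all genes. The 279 genes at the floor in control, which can only stay or rise, had medians of 0.62, 0.32 and 0.30. The chemokine medians thus lay near those of floor genes. Of 4 chemokine receptors, 0 passed in any comparison, where 11.2%, 0.280% and 8.16% of the panel passed as higher. CXCR2, a receptor for interleukin-8, had authors' means of 33.9, 119, 65.9 and 64.2 in the order of groups used above, with p of 0.13, 0.44 and 0.41 in the authors' deposited tables.

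Of 12 cytokines, IL15 and TNFSF13 passed as higher after heteronemin, at 1.91-fold and 1.67-fold, and TNFSF12 as lower, at a log2 ratio of -0.35. These are 16.7% and 8.33% of the list, beside 11.2% and 15.9% over the panel. IL1B, a classical inducer of CXCL8, had authors' means of 33 in control and 84.9 after heteronemin and did not pass (p = 0.07 in the authors' deposited table). TNF and IL6 were at 33 and 33.2 in control and at 51.7 and 36.4 after heteronemin, and neither passed. IL18, far above the floor, had means of 268 in control and 296 after heteronemin (p = 0.18 in the authors' deposited table). After tetrac and the combination 0 of the 12 passed. Of 5 cytokine receptors, TNFRSF1A and TNFRSF12A passed as higher after the combination, at log2 ratios of 0.45 and 0.74, and 0 after heteronemin or tetrac. The share after the combination was 50% of the 4 tested, beside 8.16% over the panel.

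PTGS2 and PLA2G2A belong to a list of lipid mediator genes with 8 measured members, 4 of them at the floor in control. After heteronemin the other 6 had log2 ratios from 0.29 for PLA2G2D to 0.59 for PTGDS, a prostaglandin D synthase, and 0 of the 6 passed, where 11.2% of the panel passed as higher. PTGIS, prostacyclin synthase, was at 0.48, the phospholipases PLA2G3 and PLA2G10 at 0.44 and 0.41, and the lipoxygenase ALOX5 at 0.42. The list's median was 0.46 for heteronemin, 0.26 for tetrac and 0.35 for the combination.

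Among 13 adhesion molecules of the immunoglobulin and leukocyte kind, ICAM1 and CADM1 passed as higher after heteronemin and F11R, a junctional adhesion molecule, as lower. These are 15.4% and 7.69% of the list, ICAM1 included, beside 11.2% and 15.9% over the panel. CADM1 went from the floor to 81.7, and F11R from 847 to 649. VCAM1 and SELE, endothelial partners of ICAM1 in leukocyte capture, were at the floor in control and at 36.7 and 44.7 after heteronemin, and neither passed. MCAM passed as higher after the combination, at a log2 ratio of 0.34, which is 7.69% of the list beside 8.16% over the panel. After tetrac 0 of 13 passed.

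Over the 11 lists together, 64 of 231 genes were measured, and 33 of the 64 were at the floor in control. With the 4 genes left out, 5 of the 58 tested genes passed as higher after heteronemin and 6 as lower, or 8.62% and 10.3%. The shares over the panel were the 11.2% and 15.9% given above. After the combination 4 of 56 passed as higher, or 7.14%, and 2 as lower, or 3.57%, beside 8.16% and 14.1% over the panel. After tetrac 1 of 58 passed as lower, or 1.72%, beside 0.980% over the panel. Of the 33 listed genes at the floor in control, 30 had the same authors' printed p of 0.42 after tetrac. That number was 22 after the combination and 2 after heteronemin. After tetrac this p stood beside unlike means, such as 33.5 for PTGDS and 50.9 for CCL21, so it did not follow the size of the rise. The authors' test is not stated, and how many samples carried these rises was not worked out here.

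**Figure D4:**
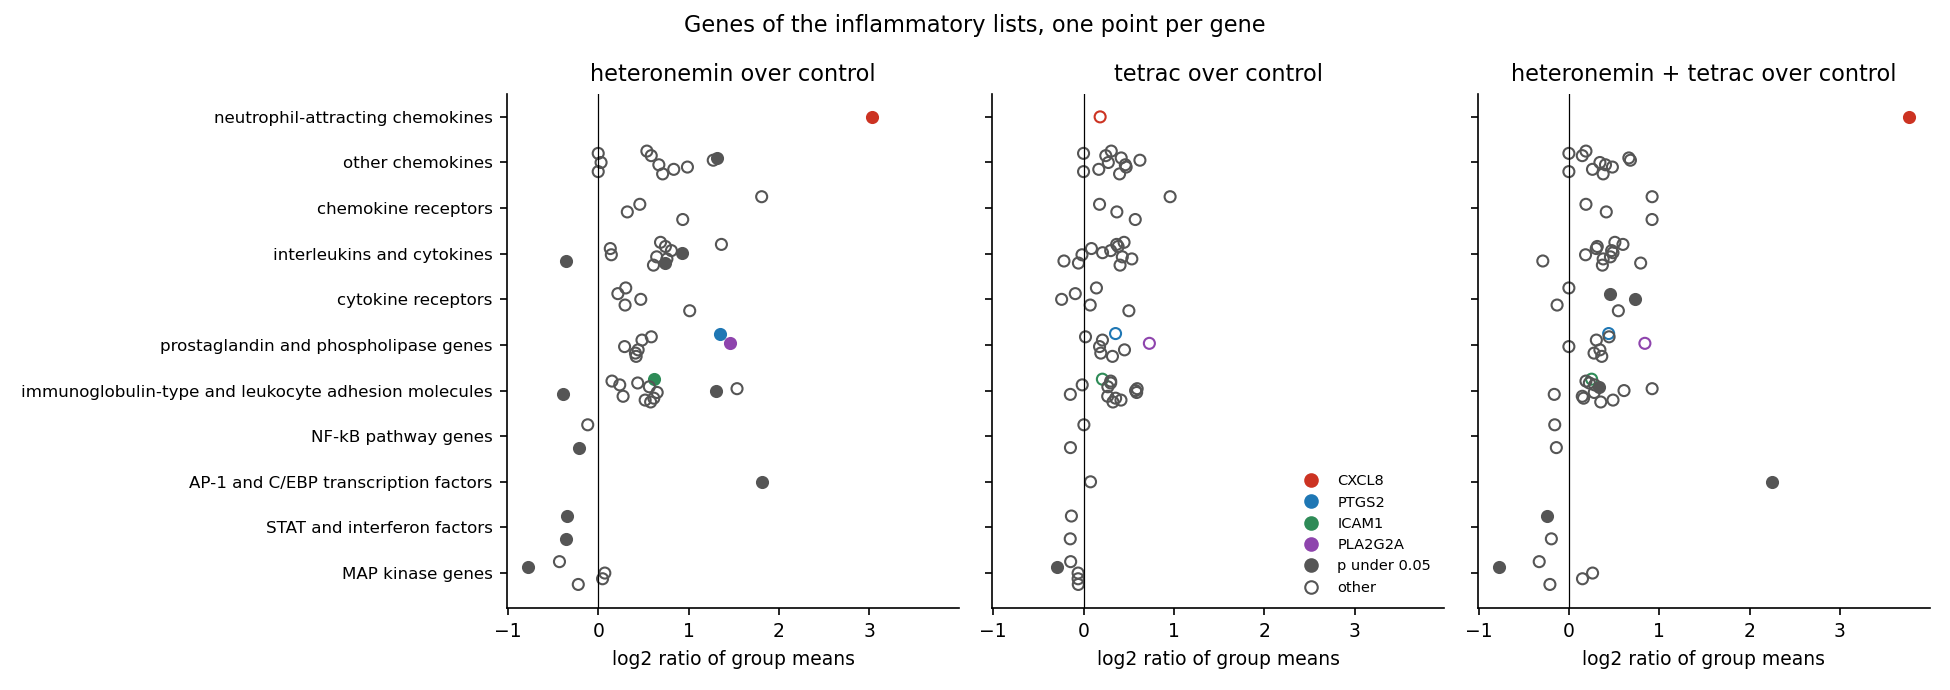
The log2 ratio of group means over control (horizontal axis) for the measured genes of the 11 lists (rows), in 1 panel per treatment; each point is a gene, filled where the authors' p was under 0.05 and coloured for the 4 genes. CXCL8 stands farthest to the right in both panels with heteronemin, and 1 point is filled after tetrac.

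The genes closest in pattern were sought by the Euclidean distance between their 3 log2 ratios over control, among the endogenous genes. For CXCL8 the nearest were JUN, SPP1 and NRP1, at distances of 1.95, 2.16 and 2.40, so no gene of the panel lay near it. PTGS2 had near neighbours in FGL2, COMP and CEACAM6, at distances of 0.06, 0.10 and 0.12. ICAM1 was nearest to IBSP, OLFML2B and MT3 and PLA2G2A to NCAM1, BAI1 and S100A7, and these 6 genes were all at the floor in control. The distances rest on 3 ratios that share the control mean and are a description only.

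Markers of epithelial and other cell types were read in this carcinoma line. The 11 measured epithelial markers had control means from 33 to 1814. EPCAM, ESRP1 and KRT19 were at 1814, 1712 and 1604, CDH1 was at 509, and CEACAM6, KRT7 and CEACAM5 were low, at 48.1, 34.1 and 33. After heteronemin, KRT7, CEACAM6 and CLDN3 passed as higher and CDH1 as lower, and after the combination KRT7 and CLDN7 passed as higher. These are 27.3%, 9.09% and 18.2% of the 11, beside 11.2%, 15.9% and 8.16% over the panel. The sum of the 11 was 8372 in control, 7845 with heteronemin, 7692 with tetrac and 8740.0 with both. The 4 measured leukocyte markers, PTPRC, CD163, ITGAM and ITGB2, were all at the floor in control and 0 of 4 passed in any comparison. Their summed level was 132 in control, 208 with heteronemin, 171 with tetrac and 180 with both. CD34 and COL1A1 passed as higher after heteronemin, or 20% of the endothelial and 14.3% of the fibroblast markers tested, beside 11.2% over the panel. None of these 13 markers passed after tetrac or the combination. The 6 endothelial markers summed to 201, 314, 249 and 278, and the 7 fibroblast markers to 265, 471, 332 and 392. In control 4 of the 6 endothelial and 5 of the 7 fibroblast markers were at the floor, where a mean can only stay or rise. After heteronemin the leukocyte, endothelial and fibroblast markers had median log2 ratios of 0.55, 0.60 and 0.84. The median of all 279 genes at the floor in control was 0.62. The sums shift in the same direction as these floor genes and as PTGS2, ICAM1 and PLA2G2A. No reason for the shared direction was tested. Over the panel, 279 genes were at the floor in control and 61 to 90 in the treated groups, and the housekeeping genes had geometric means from 296 to 299.6.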

How the data were processed

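HCT-116 RNA was counted in 12 samples, 3 per group. Raw counts were normalized by the authors in nSolver 4.0, per the series' design text, with a positive control factor per sample and a biological normalization. The authors deposited 3 tables of 770 genes, each with a normalized signal, the group mean of counts, for a treated group and control. They also deposited a score, a signed fold change that matched the quotient of the means within 0.00511, and a p-value with 2 decimals, left blank for genes at 33 in both groups. Its test, the kind of mean and any background threshold are not given in the sources used, and the depth per sample is unknown. Values per sample were not analysed here.

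From the means, log2 ratios, ranks, level classes and departures from the sum of single ratios were computed; Benjamini-Hochberg adjustment ran over each table. The members and lists were chosen with earlier results of these data known. Genes named are the 4 members, up to 4 genes per list and comparison with the largest change among those that passed, measured genes of the chemokine, NF-kB and lipid mediator lists, the 3 nearest in pattern and those next in order. CXCR2, IL1B, TNF, IL6, IL18, VCAM1, SELE, LAMB3 between treatments and the marker genes are named for their role, or after their values were seen. Some genes that these rules name are not reported here. Counting and adjustment were tested on simulated data. Of the 770 symbols, 755 are current in the RefSeq gene table. Python 3.11.15, numpy 2.4.6, scipy 1.17.1, pandas 2.3.3 and matplotlib 3.10.9 were used.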

Additional observations from a re-analysis of the deposited data

How the results depend on the processing

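No paired analysis was possible because the tables hold group means and no value per sample; for the same reason the replicate block and leaving out each replicate were not run. Scaling by housekeeping genes or by the panel sum, and adding 33 to both means, left the direction of all 28 ratios and departures of the 4 genes, none moving by more than 1.5-fold; the panel sum shifted the median of all genes after heteronemin by 0.25 on the log2 scale. Subtracting the floor and adding 10 moved 7 of the 28, with no change of sign. CXCL8 after the combination became 4.35. PTGS2 after heteronemin became 2.26 and its departure -2.10. PLA2G2A became 2.70 with heteronemin, 1.62 with tetrac and 1.80 with both, with a departure of -2.52. A printed p under 0.01, which only a printed 0 meets, left 41 genes for heteronemin, 0 for tetrac and 48 for the combination. These stand in place of 191, 9 and 153. Adjustment of the printed p-values also left 41, 0 and 48. CXCL8 and PLA2G2A are among the 41, PTGS2 and ICAM1 are not; CXCL8 is among the 48. With the largest p that rounding allows, adjustment left 0 in each. Asking for 1.5-fold besides left 95, 0 and 69. Choosing another distance kept at least 2 of the 3 nearest genes for each of the 4. The rounding of p and the floor limit what can be said of PTGS2, ICAM1 and PLA2G2A.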
